A study of Mus musculus with 4 samples.

Results

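Some stretches of captured DNA that were lower in cultured muscle satellite cells of tamoxifen-treated mice than in those of oil-treated mice ran over 500 bp or more, and these broad regions are described here. They were selected by length from the authors' list of regions with an oil signal above the tamoxifen signal. Of 39231 listed regions, 1890 on chromosomes 1 to 19 had a length of at least 500 bp, and 36691 on the same chromosomes were shorter. Length follows from the oil and tamoxifen signals themselves, so lengths, tags and folds of the broad regions are descriptions, with no test.

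Satellite cells are the stem cells of skeletal muscle. They came from hindlimb muscles of mice aged 9 weeks and were cultured for 3 days on Matrigel. In the tamoxifen group, injections of 150 µl at 20 mg/ml on 5 consecutive days induced Cre recombination to make the cells Uhrf1-deficient, and the control group had oil. The Cre driver, the targeted allele and any pooling of animals are not given in the sources used here. The series holds 4 libraries, made from methylated and non-methylated DNA of each group. Each treatment has 1 library, so loss of Uhrf1 cannot be told apart from tamoxifen itself or from differences between animals, cultures or captures. The capture identifies no cell type, so the satellite cell label was not checked against markers. The list names its inputs only as oil and tamoxifen, and they are read here as the methylated DNA libraries, on which every statement about methylation rests. They had 25614791 tamoxifen and 19534328 oil tags after duplicate removal.

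DNA methylation in mammals sits mainly on the cytosine of CpG dinucleotides. UHRF1 recognises CpG sites that carry the mark on 1 strand only after replication and brings in the maintenance methyltransferase DNMT1. The methyl-binding domain of MBD2 retains DNA in proportion to its methylated CpGs, so captured signal needs both CpGs and methylation. Promoters dense in CpG are usually unmethylated in somatic cells, while gene bodies and promoters of germline genes are usually methylated.

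Broad regions seldom lay over annotated start sites, and the 3 promoter windows printed here show what they covered when they did. Each window runs from 250 bases before to 50 bases after a RefSeq start site (GRCm38.p6, the assembly of mm10), is written 5′ to 3′ on the gene's strand, and has its CpGs in capitals. All 3 are on the plus strand, the first at chr10:88459337-88459636, the second at chr10:118440796-118441095 and the last at chr3:98221906-98222205.
Sycp3: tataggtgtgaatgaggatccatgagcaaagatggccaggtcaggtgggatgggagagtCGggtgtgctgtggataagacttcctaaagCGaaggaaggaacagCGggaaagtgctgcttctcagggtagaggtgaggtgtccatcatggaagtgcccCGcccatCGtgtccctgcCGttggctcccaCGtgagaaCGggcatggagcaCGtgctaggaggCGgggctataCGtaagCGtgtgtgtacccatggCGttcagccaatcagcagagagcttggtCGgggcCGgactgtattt
Ifng: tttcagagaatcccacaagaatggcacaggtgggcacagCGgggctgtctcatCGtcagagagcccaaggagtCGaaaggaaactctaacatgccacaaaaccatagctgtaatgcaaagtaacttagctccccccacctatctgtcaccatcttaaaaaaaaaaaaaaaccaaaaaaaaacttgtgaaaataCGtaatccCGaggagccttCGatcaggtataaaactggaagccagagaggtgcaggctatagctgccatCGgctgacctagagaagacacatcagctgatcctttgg
Reg4: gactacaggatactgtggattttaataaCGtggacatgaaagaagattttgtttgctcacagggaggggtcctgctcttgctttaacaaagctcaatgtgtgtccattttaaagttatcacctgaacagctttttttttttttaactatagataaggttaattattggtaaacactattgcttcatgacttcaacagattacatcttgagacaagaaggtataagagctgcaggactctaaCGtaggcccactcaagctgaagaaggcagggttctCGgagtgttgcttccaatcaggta

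Sycp3, which encodes a protein of the synaptonemal complex of meiosis, is a germline gene. Its window held 15 CpGs, the most among the protein-coding windows concerned. The broad region there ran over 842 bp (88459383 to 88460224), covered 254 bases of the window, and had its summit 457 bp downstream of the start site. It had 81 tamoxifen and 132 oil tags over that summit. After scaling the tamoxifen library to the size of the oil library, the tamoxifen signal was 46.8% of the oil signal (95% exact limits 35.0% to 62.2%), so this start kept more of its signal than the median broad region.

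The window of the cytokine gene Ifng held 7 CpGs, 292 of its bases were covered, and the summit was 55 bp upstream of the start site. There were 31 tamoxifen and 111 oil tags, and 21.3% of the oil signal was kept (13.8% to 32.0%). That of Reg4, a secreted lectin gene, held 3 CpGs and was covered in full by a region of 815 bp with 15 tamoxifen and 59 oil tags. The other protein-coding windows touched by broad regions were those of Amd2 (6 CpGs), Igfbp1 (8) and Gm46731 (0 CpGs, with 3 bases covered).

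These were 6 of 20085 protein-coding windows, or 0.0299%, and shorter regions alone touched another 138, or 0.687%. Among lncRNA windows the numbers were 22 and 231 of 11311. These counts come from 1818 broad and 35435 shorter regions, so they do not compare the kinds of region one for one. Within 500 bp of a start site of any gene lay 1.71% of broad regions (1.16% to 2.41%) and 1.58% of shorter ones (1.45% to 1.71%). For protein-coding start sites the shares were 0.605% and 0.674%. Over both kinds of gene, the 28 windows under broad regions had a median of 8 CpGs and a highest count of 19. The 369 windows under shorter regions alone had a median of 9, and the 30999 windows under no listed region a median of 7. No window under a broad region had 20 or more CpGs, against 3.79% of those under shorter regions and 27.3% of those under none. These pooled values hide a difference between the kinds of gene. Among lncRNA windows the median was 8 CpGs under broad regions and 4 under none. Among protein-coding windows it was 6.5 under broad regions and 14 under none. Windows under none with 20 or more CpGs made up 9.40% for lncRNA and 37.3% for protein-coding genes. The windows came from 18 chromosomes, since chromosome 18 was not analysed here for start sites.

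The broad regions had a median length of 574 bp (quartiles 529 and 656 bp), against 255 bp for the shorter ones. They were 4.90% of the listed regions of these chromosomes and held 10.3% of the listed base pairs, 1.17 Mb, against 10.2 Mb in shorter regions. Lengths fell off steeply, with 764 regions of 600 bp or more, 162 of 800 bp or more, 44 of 1000 bp or more and 5 of 1500 bp or more.

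Tags over the summit were higher in longer length classes in both libraries. The medians were 8 tamoxifen and 32 oil tags in regions of 201 bp, the shortest length the caller allows, and 22 tamoxifen and 76 oil tags at 500 to 599 bp. At 1007 bp and above they were 31 and 111.5 tags. Over all broad regions the median was 23 tamoxifen tags (quartiles 15 and 37) and 81 oil tags (57 and 123). The shorter regions had 14 tamoxifen and 50 oil tags. Length and oil signal are linked by the way the list was made, since a region is built from nearby positions that pass the authors' q limit of 1e-04.

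**Figure D1:**
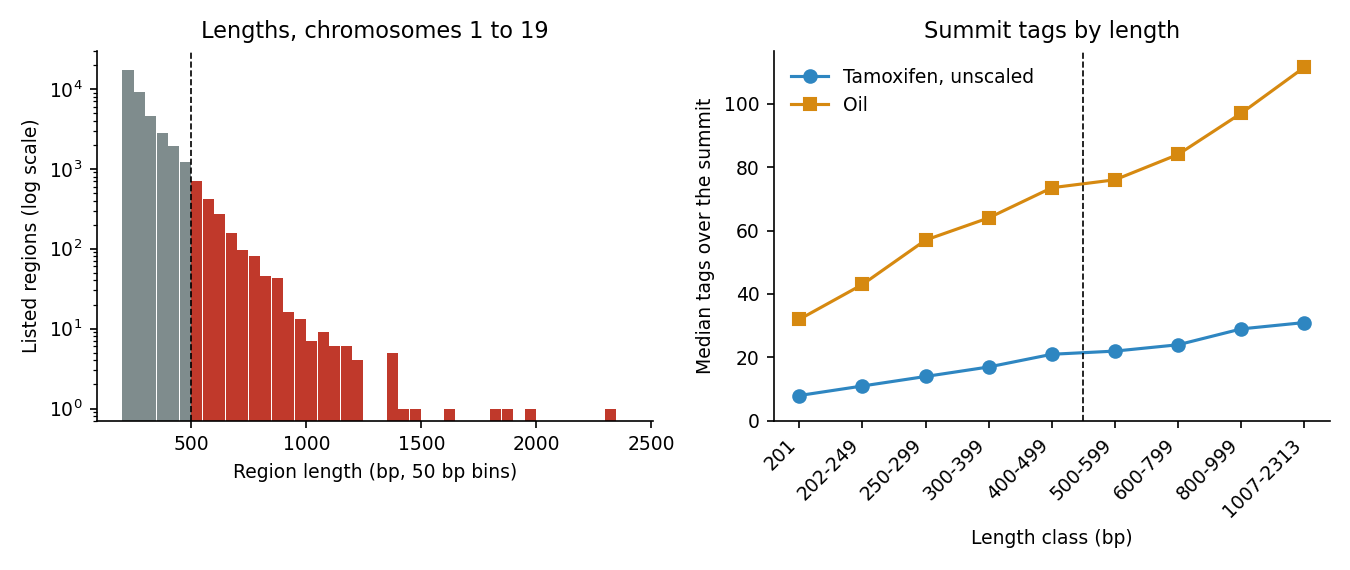
Left, number of listed regions on chromosomes 1 to 19 per 50 bp of length on a log axis, with regions of 500 bp or more in red. Right, median tamoxifen (unscaled) and oil tags over the summit in each length class, with 8 and 32 tags at 201 bp and 31 and 111.5 tags at 1007 bp and above.

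The median loss of signal was not deeper in broad regions than in shorter ones. A median of 22.1% of the oil signal was kept after tamoxifen in broad regions (quartiles 17.5% and 28.4%), against 20.0% in shorter ones (15.1% and 25.4%). The authors' fold, which runs as oil over tamoxifen, had a median of 4.31 in broad and 4.63 in shorter regions. This median was lower in the broad ones on all 19 chromosomes. Fold and length come from the same signal, so that count is a description only. By length class the median fold was 4.26 at 400 to 499 bp and 4.41 at 500 to 599 bp, with no drop at the limit. A fold of 4 or more was listed for 1104 broad regions (58.4%), beside 66.2% of all listed regions of these chromosomes. A fold of 10 or more was listed for 19 broad regions (1.01%), beside 2.03% of all. In 6 broad regions (0.317%) the tamoxifen value was the genome mean that the caller sets as its lowest background, meaning 2 or fewer tags, as in 952 shorter ones (2.59%).

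The 27 regions of exactly 500 bp had 3 to 64 tamoxifen tags (median 22) and 27 to 169 oil tags (median 103), with a median fold of 5.08. The 29 regions of 499 bp had 7 to 191 tamoxifen tags (median 20) and 29 to 229 oil tags (median 78), with a median fold of 3.81. The ranges on both sides of the length limit overlapped. Summits were spread along the broad regions, with 33.4% in the middle of 3 equal parts, against 59.9% in the shorter regions.

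**Figure D2:**
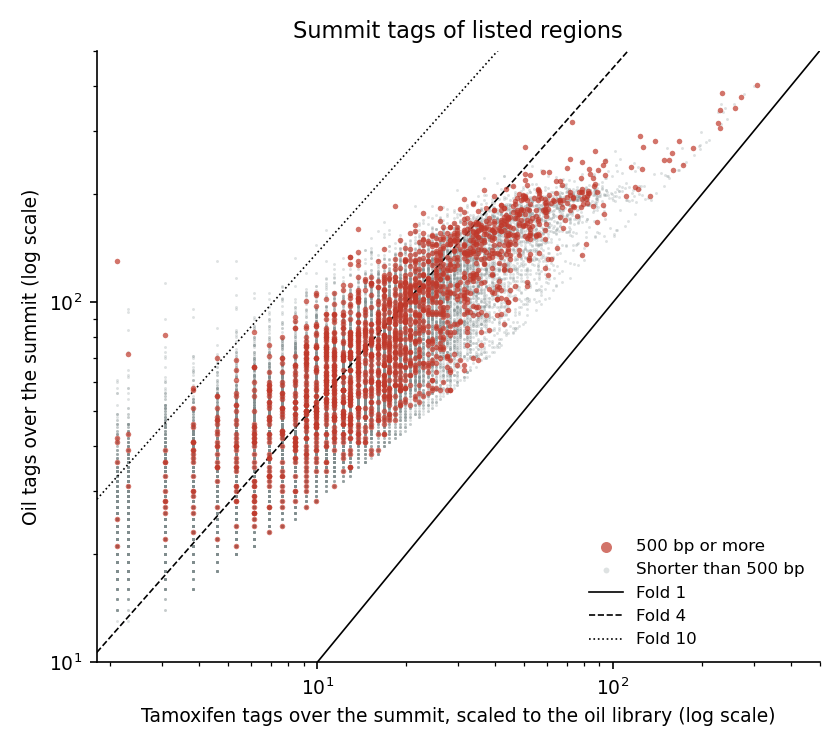
Tamoxifen tags over the summit, scaled to the oil library, against oil tags, both on log axes, for regions of 500 bp or more (red) and shorter ones (grey), with lines of equal fold. The broad regions overlap the cloud of shorter ones, with medians of 23 unscaled tamoxifen and 81 oil tags, and a few at the upper right lie close to a fold of 1.

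A few broad regions were heavily covered in both libraries. In 22 of them the tamoxifen library had 150 or more tags, with medians of 208.5 tamoxifen and 269.5 oil tags, and their folds were 1.31 to 2.33 (median 1.61). The best covered lay outside genes on chromosome 2 (98666435 to 98667126), with 402 tamoxifen and 402 oil tags. Another 8 lay between 3000215 and 3038439 of chromosome 9, near the proximal end of its sequence, with folds of 1.33 to 1.68. Both places are known from other mm10 data for pile-ups of reads from satellite repeats. Without the 22 regions, the median was 80 oil tags and the median fold 4.34. What repeats contribute to the other regions was not tested.

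By their midpoint, 14 of the 15 longest regions lay in a gene. The longest of all, 2313 bp (chromosome 10, 76310488 to 76312800), lay within Dip2a, a gene of the disco-interacting protein family. It had 66 tamoxifen and 270 oil tags and kept 18.6% of the oil signal (14.0% to 24.5%). The next, 1986 bp within Rere on chromosome 4 (150513703 to 150515688), which encodes a nuclear corepressor, had 62 tamoxifen and 176 oil tags and kept 26.9% (19.8% to 36.1%). The limits of these overlap.

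A region of 1853 bp on chromosome 4 reached past both ends of the lncRNA gene Gm40237. It had 306 tamoxifen and 381 oil tags and kept 61.2% (52.5% to 71.4%), far above the median. Pigf, a gene of GPI anchor synthesis, held one of 1802 bp (30 tamoxifen, 111 oil tags), and D6Wsu163e one of 1601 bp (10 tamoxifen, 49 oil tags). Length did not require heavy coverage. Setd1b, for example, held 1354 bp with 14 tamoxifen and 43 oil tags over the summit, a kept share of 24.8% (12.5% to 46.3%). The others among the 15, down to 1228 bp, included regions in Ano8, the astrocyte gene Mlc1, the actin-binding gene Triobp, the kinase gene Map3k1 and the viral RNA sensor gene Ddx58. Over all 15, between 15.3% and 75.3% of the oil signal was kept, with a median of 24.8%.

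The 10 highest folds were in regions of 501 to 940 bp. In Zfhx3, a homeodomain zinc finger gene, a region of 649 bp had 2 or fewer tamoxifen tags and 130 oil tags, and the genome mean as background gave it a fold of 42.3. A region of 685 bp outside genes on chromosome 8 (40649613 to 40650297) had 3 tamoxifen and 72 oil tags, a fold of 22.2 (0.640% to 9.66% kept). Smad7, an inhibitor of TGF-beta signalling, followed with 4 tamoxifen and 81 oil tags and a fold of 20.2 (3.77% kept). Next came the polarity gene Pard3 with 13.9, the checkpoint kinase gene Chek2 with 13.5 and the adenylyl cyclase gene Adcy6 with 13.4. Pard3 and Chek2 also had 2 or fewer tamoxifen tags. These folds rest on at most 6 tamoxifen tags each, too few to settle their order.

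Broad regions lay in genes slightly more often, and outside them less often, than shorter regions. By their midpoint, 309 (16.3%, exact 95% limits 14.7% to 18.1%) were within 2000 bp of an end of a gene, counting protein-coding and lncRNA genes, against 14.7% of shorter regions (14.4% to 15.1%), and these limits overlap. A further 1069 (56.6%, 54.3% to 58.8%) lay deeper inside genes, against 54.7% (54.2% to 55.2%), and again the limits overlap. Outside genes lay 512 (27.1%, 25.1% to 29.2%), against 30.5% (30.1% to 31.0%), and here the limits do not overlap. The limits cover counting error only, treat regions as independent, and say nothing of mice or cultures. Weighting shorter regions to the oil tags of the broad ones moved their shares to 14.1%, 53.3% and 32.6%. The broad share near an end was the higher of the pair on 12 of 19 chromosomes, and the broad share outside genes the lower on 12 of 19. By length class, the share near an end was 15.7% at 400 to 499 bp. It was 14.7% in the 1126 regions of 500 to 599 bp, like the 14.7% of all shorter regions. At 600 to 799 bp it was 19.1%, so the higher broad share did not begin at the limit of 500 bp. It was 17.8% in the 118 regions of 800 to 999 bp and 15.9% in the 44 of 1007 bp and above, so it did not rise steadily with length.

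Starts and far ends of genes were separated where RefSeq gives the strand, on 18 chromosomes with 1818 broad and 35435 shorter regions. Within 2000 bp of a start site of a protein-coding gene lay 60 broad regions (3.30%, 2.53% to 4.23%), against 3.62% of shorter ones (3.43% to 3.82%). Within 2000 bp of the far end, where transcription stops, lay 136 (7.48%, 6.31% to 8.79%), against 5.74% (5.50% to 5.99%). The limits overlap at starts and do not at far ends. Weighted to the oil tags of the broad regions, the shorter ones had 3.60% at starts and 5.18% at far ends.

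The higher broad share at far ends was on the gene's side. Between 2000 and 1000 bp before the far end lay 59 broad regions (3.25%, 2.48% to 4.17%), against 1.92% of shorter ones (1.78% to 2.07%), and these limits do not overlap. Many such bins were compared, and the limits make no allowance for their number. In the last 1000 bp before it lay 46 (2.53%, 1.86% to 3.36%), against 2.11% (1.96% to 2.26%), and these limits do. In the 1000 bp beyond it lay 16 (0.880%), against 0.951%. In the 1000 bp before a start site lay 6 (0.330%, 0.121% to 0.717%), against 0.717% (0.632% to 0.810%), and these limits overlap. When protein-coding genes were cut into 3 equal parts, the last part held 433 of 948 broad regions (45.7%, 42.5% to 48.9%) and 42.0% of shorter ones (41.3% to 42.8%). The first part held 23.8% (21.2% to 26.7%) and 26.2% (25.5% to 26.8%). The limits overlap in both parts.

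**Figure D3:**
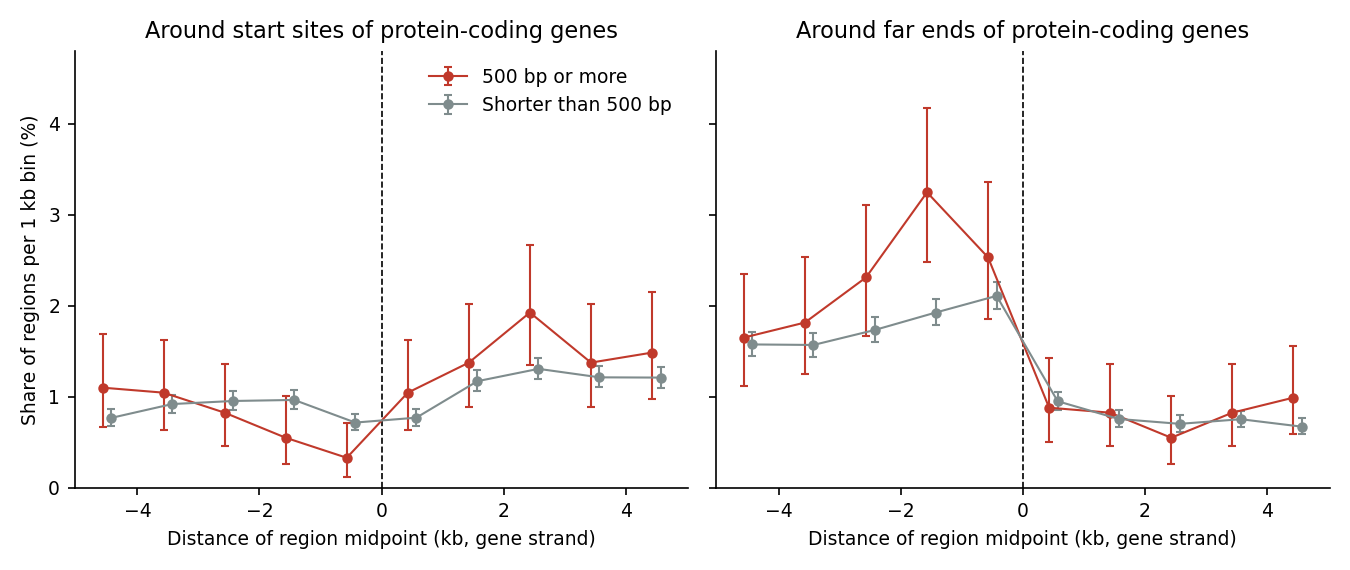
Share of regions, in percent, whose midpoint falls in each 1 kb bin around start sites (left) and far ends (right) of protein-coding genes, with negative distances upstream on the gene's strand and bars showing exact 95% limits. Broad regions (red) reach 3.25% in the bin from 2 to 1 kb before the far end, against 1.92% for shorter ones (grey). In the last 1 kb before the far end the limits overlap.

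The signal kept was alike at these places. Broad regions near starts had medians of 22 tamoxifen and 79.5 oil tags and kept 21.1% (quartiles 16.2% and 26.4%). The 121 near a far end and no start had medians of 22 and 78 tags and kept 23.0% (17.3% and 28.2%). All others had 23 and 81 tags and kept 22.1% (17.5% and 28.4%). The quartile ranges overlap.

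Counting any overlap with a gene or the 2000 bp on either side of it, 1350 of 33073 genes carried a broad region (4.08%). These were 1116 protein-coding genes, or 5.4%, and 234 lncRNA genes, or 1.89%. Any listed region was carried by 39.4% of genes, by 47.1% of protein-coding genes and by 26.6% of lncRNA genes. Of the 1350 carriers, 328 had a broad region and no shorter one. Most carriers thus also had a shorter region, while only 39.4% of all genes had any listed region. Of the broad regions, 507 overlapped no gene or flank, 1238 overlapped 1 gene and 145 overlapped 2 or more.

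Carriers were long genes. Protein-coding carriers of a broad region had a median length of 50.5 kb, those with shorter regions only 33.6 kb, and those with none 8.59 kb. The share that carried a broad region was 1.59% in genes under 10 kb, 5.61% at 20 to 40 kb, 8.35% at 40 to 80 kb, 12.5% at 80 to 160 kb and 15.6% above that. The part of gene length in the counts of gene groups was not tested.

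The genes with most broad regions mixed very long and fairly short ones. Cit, which encodes the citron kinase of cytokinesis (164 kb), had 7, with 110 to 210 oil tags and 18.7% to 41.0% of the signal kept. The largest of these reached 1087 bp (115885526 to 115886612 of chromosome 5), with 27 tamoxifen and 110 oil tags. The phosphatase gene Cdc14a (156 kb) had 5, all with low oil tags of 36 to 60. Clstn1, which encodes calsyntenin 1 (63.8 kb), also had 5, with 9.87% to 35.8% kept, and 4 of them lay in the last 30% of the gene or just beyond it.

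Setd1b, which encodes a histone H3 lysine 4 methyltransferase, had 4 broad regions in 26.6 kb (chromosome 5, 123142040 to 123168630). They had 42, 18, 14 and 6 tamoxifen tags, against 172, 138, 43 and 35 oil tags, with 18.6%, 9.95%, 24.8% and 13.1% kept. Its density of 15.04 broad regions per 100 kb was above the 4.28 of Cit, the 7.84 of Clstn1 and the 0.438 of Wwox, which also had 4. Fryl had 4 as well, with 13.6% to 23.6% kept, and the transcription factor gene Bcl11b and the cadherin gene Cdh13 were the first in alphabetical order of 21 genes with 3.

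Gene groups were read against the 4.08% of all genes and 5.4% of protein-coding genes that carried a broad region. The group of chromatin genes (histone methyltransferases, demethylases and Polycomb members) had 9 carriers of 37 genes (24.3%, exact limits 11.8% to 41.2%), with 16 regions. Genes of this group are also long, with a median of 52.3 kb, against 17.5 kb for protein-coding genes. Any listed region was carried by 33 of the 37 (89.2%), against 47.1% of protein-coding genes, so the high share was not particular to broad regions. Besides Setd1b, the group included Kdm6b, which encodes a histone H3 lysine 27 demethylase, with 3 regions in 21.9 kb. The best covered of these lay 699 bp from a gene end, with 116 tamoxifen and 202 oil tags and 43.8% kept (34.5% to 55.3%). Jarid2, a Polycomb partner, had 11 tamoxifen and 91 oil tags and kept 9.22% (4.45% to 17.3%). These regions had the highest and the lowest kept share of the group's 16, so their limits, which do not overlap, give no comparison of the genes. The other regions of Kdm6b kept 21.8% (12.9% to 35.4%) and 19.8% (9.88% to 37.1%), with limits that overlap those of Jarid2. Across the 16 regions a median of 21.1% was kept, close to the 22.1% of all broad regions.

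Of 16 genes of the DNA methylation machinery, 5 carried a broad region (31.2%, 11.0% to 58.7%), and their median length was 43.6 kb. They were the de novo methyltransferase gene Dnmt3a, the methyl-CpG reader genes Mbd2 and Zbtb38, and Tet1 and Tet3, which encode enzymes that oxidise methylated cytosine. Dnmt3a had 17 tamoxifen and 134 oil tags with 9.68% kept (5.47% to 16.1%). Tet1 had 18 tamoxifen and 101 oil tags with 13.6% kept (7.74% to 22.6%), and Tet3 had 27 and 81 tags with 25.4% kept (15.8% to 39.7%). Zbtb38 had 15 and 42 tags with 27.2% kept (14.0% to 50.1%), and Mbd2 had 4 and 39 tags with 7.82% kept (2.03% to 21.7%). Over the 5 regions a median of 13.6% was kept, beside 22.1% of all broad regions. The regions of Dnmt3a, Tet1 and Tet3 lay toward the far end of their gene, that of Zbtb38 was nearer the start, and the strand of Mbd2 was not known. Uhrf1 itself carried 4 and Dnmt1 8 shorter regions, and neither a broad one. Any listed region was carried by 13 of the 16 genes (81.2%), against 47.1% of protein-coding genes.

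Of 26 contractile and fusion genes, 6 carried a broad region (23.1%, 8.97% to 43.6%), with a median gene length of 20.0 kb. The cardiac actin gene Actc1 had 28 tamoxifen and 101 oil tags, 822 bp from its start, and kept 21.1% (13.4% to 32.4%). The fast myosin gene Myh4 had 37 and 123 tags and kept 22.9% (15.4% to 33.4%). The embryonic myosin gene Myh3 kept 15.5%, the actinin gene Actn2 12.0%, the calcium release channel gene Ryr1 28.1%, and the 2 regions of the titin gene Ttn 27.4% and 26.8%. All 7 lay inside their gene. Any listed region was carried by 17 of the 26 genes (65.4%), against 47.1% of protein-coding genes.

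Regulators of the satellite cell state were near the share of all genes. Of 22 listed, 1 carried a broad region (4.55%, 0.115% to 22.8%). It was Megf10, a satellite cell surface gene, with a region of 982 bp with 18 tamoxifen and 59 oil tags. None of 16 cell cycle inhibitors carried 1 (exact upper limit 20.6%). Of 22 cell cycle drivers only the replication gene Mcm2 carried 1 (4.55%, 0.115% to 22.8%), with 35 tamoxifen and 75 oil tags. In the Notch pathway 2 of 26 genes carried a broad region (7.69%, 0.946% to 25.1%). The pathway's DNA-binding factor gene Rbpj had a pair of them side by side on chromosome 5, 587 bp (53582552 to 53583138) with 45 tamoxifen and 165 oil tags and 809 bp with 29 and 132. The coactivator gene Maml3 had 1.

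In the TGF-beta and BMP pathway, 6 of 26 genes carried 1 (23.1%, 8.97% to 43.6%; median gene length 65.4 kb). They were the receptor genes Acvr2b and Tgfbr3, the signal transducer genes Smad1 and Smad9 and the inhibitory Smad6 and Smad7. Kept signal ranged from 3.77% at Smad7 to 40.9% at Acvr2b, where there were 105 tamoxifen and 196 oil tags (31.9% to 52.0%). Any listed region was carried by 16 of the 26 genes (61.5%), against 47.1% of protein-coding genes.

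The broad regions of germline and pluripotency genes were near gene ends. Of 27 germline genes, Sycp3 and Tex14 carried a broad region (7.41%, 0.910% to 24.3%), each within 500 bp of the gene's start. Tex14 had 40 tamoxifen and 88 oil tags and kept 34.7% (23.2% to 50.9%). Of 14 pluripotency genes, Zfp42 carried 1 (7.14%, 0.181% to 33.9%), 1101 bp from its far end, with 37 tamoxifen and 57 oil tags and 49.5% kept (31.8% to 76.2%). The lower limit of each of these 3 lies above the median of 22.1% kept over all broad regions. Over all broad regions the upper quartile was 28.4% and the 95th percentile 40.1%. The Zfp42 region, with a -log10 q of 4.17, only just passed the authors' q limit of 1e-04. Among 35 imprinted genes, 4 carried a broad region (11.4%, 3.20% to 26.7%). They were Igf2r, Peg3, its neighbour Zim1 and Slc38a4, all with their regions inside the gene and 13.2% to 28.0% kept.

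In the Hox clusters, 4 of 39 genes carried a broad region (10.3%, 2.87% to 24.2%), but these rested on 4 distinct regions. Those at 52203063 to 52203781 and 52205008 to 52205791 of chromosome 6 lie within the span of Hoxa3 and on or beside Hoxa5 and Hoxa6, and count for all 3. Of 18 Sox genes, Sox5, Sox9 and Sox10 carried 1 (16.7%, 3.58% to 41.4%). Of 41 forkhead genes, Foxn3, Foxo3, Foxo6 and Foxp4 did (9.76%, 2.72% to 23.1%). The limits of the Hox, Sox and forkhead shares all include the 5.4% of protein-coding genes. Foxo3 had 18 tamoxifen and 127 oil tags and kept 10.8% (6.21% to 17.8%) at 366 bp from its far end.

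Several other groups had shares between 2.17% and 7.14%, beside 4.08% of all genes. They were Zfp zinc finger genes (21 of 362, 5.80%), potassium channels (5 of 91, 5.49%), collagens (2 of 42, 4.76%), semaphorins, plexins and ephrins (3 of 48, 6.25%), Wnt genes (2 of 28, 7.14%) and Adam proteases (1 of 46, 2.17%). Only 1 of 1100 olfactory receptor genes carried a broad region (0.0909%), beside Olfr279, and these genes are short. None of 57 clustered protocadherins did (exact upper limit 6.27%), though 39 carried shorter regions. That upper limit lies above the 4.08% of all genes. It takes the genes as independent, while their median length was 90.3 kb, and overlap between their spans was not tested. Of 19 markers of other cell types that muscle cultures can hold, the Schwann cell gene Sox10 and the fibro-adipogenic gene Zfp423 did (10.5%, 1.30% to 33.1%). This gives no measure of such cells.

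**Figure D4:**
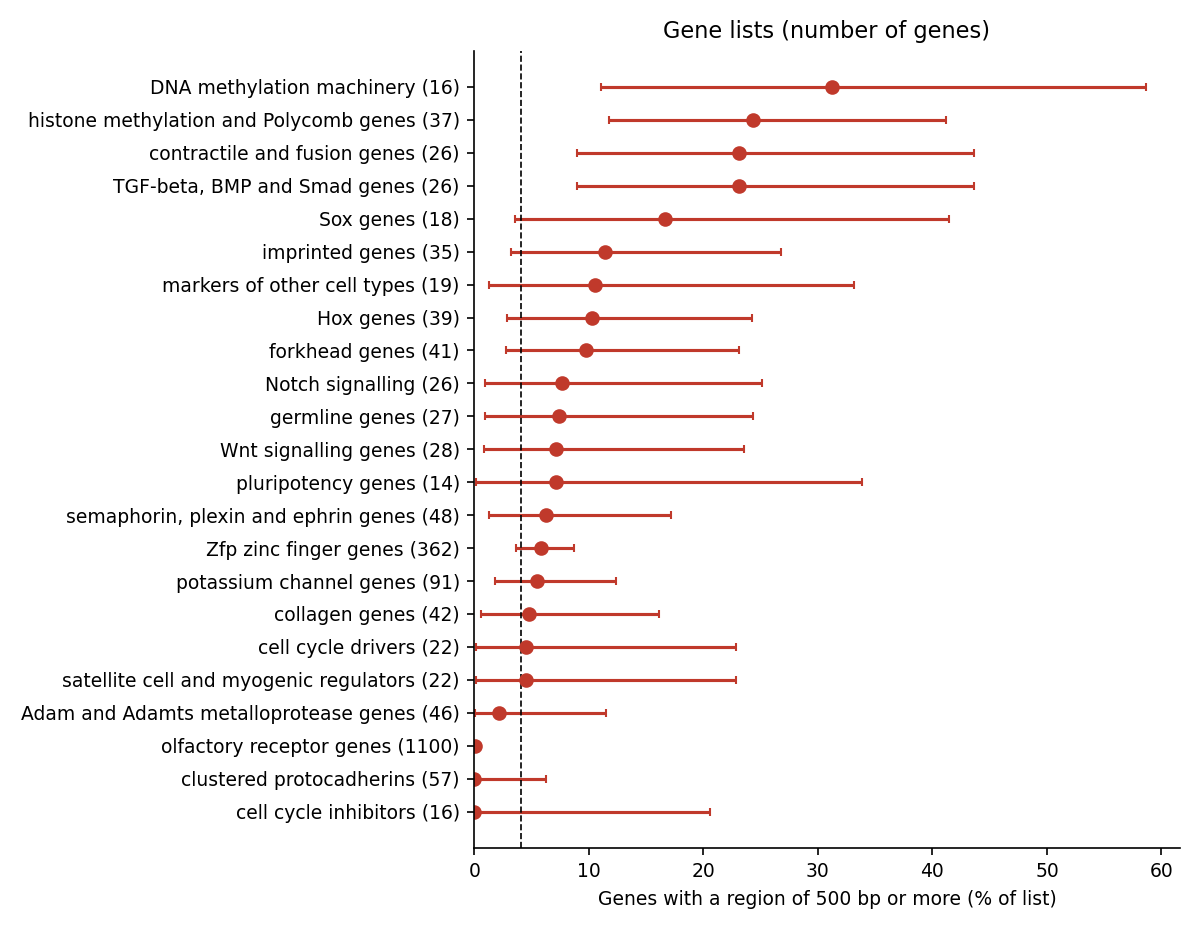
Share of each gene list, in percent, that carried a region of 500 bp or more, with exact 95% limits and the number of genes in brackets. The dashed line is the share of all genes, 4.08%. The chromatin genes lie to its right at 24.3%. The clustered protocadherins are at 0 of 57, with an upper limit of 6.27% that passes the line.

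Broad regions had close neighbours more often than shorter ones. Another listed region lay within 2000 bp of 496 broad regions (26.2%), against 17.7% of shorter ones, and within 10000 bp of 59.4%, against 48.8%. The median gap to the nearest listed region was 6.84 kb for broad and 10.4 kb for shorter regions. Length and closeness come from the same signal and are not independent.

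Broad regions were found on each of the 19 chromosomes in similar shares of the list. The share was lowest on chromosome 14, 3.53% (52 regions, limits 2.65% to 4.61%), and highest on chromosome 9, 5.49% (110 regions, 4.53% to 6.57%), where 8 of the regions are those near its proximal end. Per Mb of annotated span, chromosome 14 had 0.417 broad regions and chromosome 19 had 1.15. The median fold on single chromosomes was 3.97 to 4.58 in broad regions and 4.502 to 4.75 in shorter ones.

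**Figure D5:**
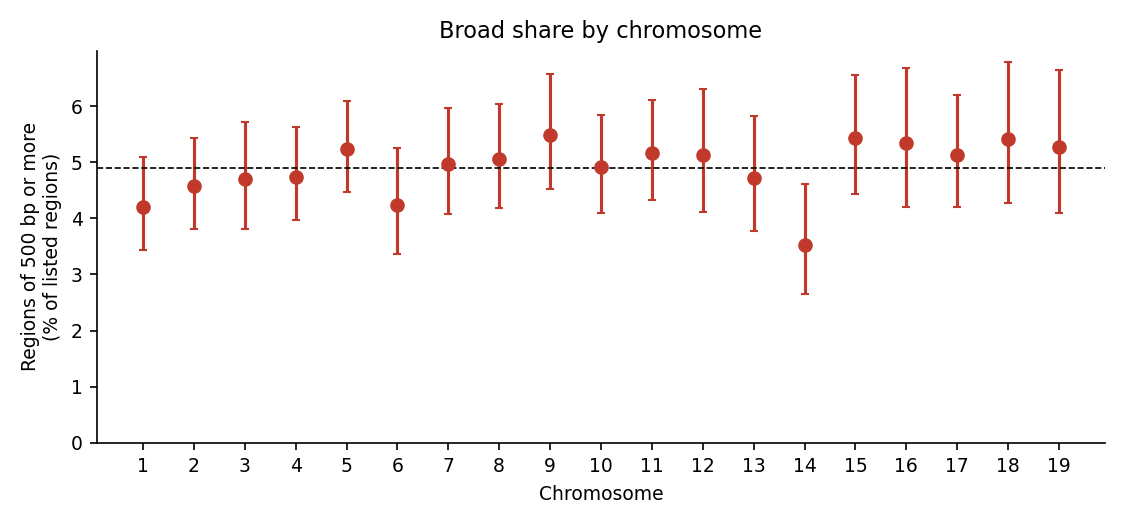
Regions of 500 bp or more as a percentage of all listed regions on each chromosome, with exact 95% limits. The dashed line is the value over all 19 chromosomes, 4.90%, and the upper limit of chromosome 14, 4.61%, lies below it.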

How the data were processed

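DNA captured with an MBD2-based kit was sequenced per the labels' protocols. The submitters' processing notes name Trim Galore, HISAT2 and mm10, with no settings. Regions were called by the authors with MACS2 2.2.6, per the file headers, with oil as treatment input and tamoxifen as control input, at most 1 tag per position and strand, tags of 130 bp extended to 201 bp, and no regional background. Before duplicate removal there were 36519772 tamoxifen and 35216008 oil tags. The deposited pileup is a signal, the oil tags over the summit. The deposited fold is the ratio of oil plus 1 to scaled tamoxifen plus 1. Of 2 deposited columns with lost headings, the first was taken by its place as -log10 of the p-value and the second as -log10 of the q-value. Both compare 2 libraries, not conditions.

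Tamoxifen tags were computed from pileup, fold and the library factor of 0.763. They were whole within 0.02 tags in 1884 broad regions (99.7%), and the others sat at the floor of 2.10 scaled tags. Limits are exact (Clopper-Pearson) at 95%, cover counting error only, and for kept shares take the oil and tamoxifen tags as counts. Summits are where oil was highest, which favours oil in the folds. Genes and start sites came from RefSeq tables of GRCm38.p6, which give no exons, with 20665 protein-coding and 12408 lncRNA genes on chromosomes 1 to 19. Strand was known for 25748 of them. A genome sequence was not used here. The region members, gene lists and rule for named genes were chosen with earlier results of these data known. Named were the 15 longest regions, the 10 with most oil tags, the 10 of highest fold, the 8 protein-coding genes with most broad regions (ties in alphabetical order), and up to 4 genes of each list by oil tags. Further list carriers and the windows printed were picked after their values were seen. The split of starts and far ends, parts of genes, promoter windows, neighbours and gene-length classes were also chosen after the data were seen. Alternatives changed the length limit, gene-end window, deciding point, gene set, q limit and library scaling. Placing and tag recovery were tested on simulated data. Python 3.11.15, numpy 2.4.6, pandas 2.3.3 and scipy 1.17.1 were used.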

Additional observations from a re-analysis of the deposited data

How the results depend on the processing

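The number of broad regions followed the length limit, with 5032 at 400 bp, 764 at 600 bp and 162 at 800 bp. The share near a gene end was 8.78% with a 1000 bp window, 34.1% with 5000 bp, 18.5% when any overlap decided, 11.3% with protein-coding genes alone and 18.7% at a length limit of 600 bp. The broad share exceeded the share of shorter regions in all 10 alternatives tried for that difference, by 0.541 points (1000 bp window) to 3.97 points (600 bp limit), with 3.79 points for the 5000 bp window. These alternatives reuse largely the same regions and are not independent. The length class of 500 to 599 bp alone had 14.7% near an end, no higher than shorter regions. The median fold was 3.33 with unscaled tamoxifen tags, 4.21 at 600 bp, 3.82 at 800 bp and 4.48 at a q limit of 1e-10. Median oil tags were 77 at 400 bp, 88 at 600 bp, 101.5 at 800 bp and 86 at that q limit. Leaving out the 22 regions of 150 or more tamoxifen tags, an alternative chosen after seeing the data, gave 16.4%, 4.34, 80 and 1342 genes. No paired analysis was possible because each group has 1 library, and no replicate could be left out. Depth limits single regions most where tamoxifen tags are few, and weaker differences are not listed.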

Other observations

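Chromosomes X and Y, outside the set described, held 17 regions of 500 bp or more among 555 (3.06%, exact limits 1.79% to 4.86%) and 5 among 95 (5.26%, 1.73% to 11.9%). The 3 longest on X lay together toward the far end of Mid1, a ubiquitin ligase gene at the edge of the pseudoautosomal region. The region of 1152 bp (169984713 to 169985864) had 158 tamoxifen and 245 oil tags, that of 1062 bp had 162 and 210, and that of 1043 bp had 50 and 165. Their kept shares were 49.2%, 58.8% and 23.1%, so the last lies well below the other two. The longest on Y, 1222 bp outside genes, had 46 tamoxifen and 101 oil tags.

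Among features other than protein-coding and lncRNA genes, pseudogenes were overlapped by 61 broad regions (3.23%), against 2.64% of shorter ones, and transcribed pseudogenes by 10 (0.529%), against 0.215%. Longer regions can overlap a feature more often by length alone, and these shares were not adjusted for the median lengths of 574 and 255 bp. Mir682, a microRNA gene on chromosome 13, lay whole within a region of 512 bp with 15 tamoxifen and 61 oil tags. The glutamate tRNA gene n-TEctc4 on chromosome 17 was overlapped by a region of 525 bp with 44 tamoxifen and 139 oil tags. Immunoglobulin loci held 3, 1 in Igh with 21 tamoxifen and 87 oil tags and 2 in Igk with 15 and 97 tamoxifen against 66 and 184 oil tags.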
